A study of Mus musculus with 7 samples.

Results

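The collagen genes of mouse brain vessels were followed 4 hours after PDGF-CC, a growth factor for cells that carry PDGF receptors, was injected into the cerebral ventricles. The samples were vascular fragments, the pieces of small vessels isolated from brain tissue, of female mice aged 12 weeks, of strain C57BL/6N in the series design and C57BL/6 in the sample labels. The PDGF-CC group held 4 samples and the PBS group, which received the saline vehicle by the same route, held 3, with 1 microarray for each of the 7 samples. No genetic change was named for either group, and the labels did not say whether each sample was a separate mouse. The p-values therefore measure sample-to-sample spread, which may be technical. A gene was a member if its symbol was Col, digits, a and digits and it had a probe set annotated with that symbol alone. This gave 47 probe sets and 44 collagen genes among 22180 genes with such a probe set. Each gene was read from its brightest probe set, which mattered for the 3 genes with a further probe set, Col1a2, Col5a1 and Col6a1. Of the 44 genes, 8 were basement membrane collagens (Col4a1 to Col4a6, Col15a1 and Col18a1) and 6 were the fibrillar collagens of types I, III and V. The other 30 were minor fibrillar, fibril-associated, beaded filament, short-chain, transmembrane and anchoring collagens.

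Collagens are secreted proteins whose chains wind into a rope-like helix, with glycine recurring at a regular step. Type IV collagen forms the sheet-like network of the basement membrane that surrounds brain endothelium and encloses pericytes, and defects in its main chains cause fragile small vessels. Fibrillar collagens form cables in the outer wall of arteries and veins, where perivascular fibroblasts are their main source. Before fibrils can form, the chains are hydroxylated, folded and exported, their end propeptides are cut off and the molecules are cross-linked.

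The main type IV genes are known as a pair that starts from a shared region and is read in opposite directions. RefSeq promoter windows, from 250 bases before to 50 bases after each start, placed the annotated starts close together on opposite strands. Such windows were found for 35 of the 44 collagen genes in the GRCm38.p6 build. On chromosome 8 the annotated starts of Col4a1 (minus strand, 11312826) and Col4a2 (plus strand, 11312805) lay 21 bases apart, and their windows shared 78 bases. Each start lay past the other in its reading direction, so the annotated transcripts overlap at their beginnings. The bases before the Col4a1 start and those before the Col4a2 start are therefore not the same bases. The stretch shown lies before the Col4a2 start on the plus strand, from 44 to 15 bases upstream (chr8:11312761-11312790). For Col4a1 it lies after the annotated start, and capitals mark a CCAAT box.
Col4a2: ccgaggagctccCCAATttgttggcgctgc
On either strand of the 250 bases before the start, CCAAT was found in 4 of 8 windows of basement membrane genes (7 genes), in 2 of 4 windows of fibrillar genes and in 33.8% of all 32851 windows. TATAAA was found in 0 of the 8, in 1 of the 4 and in 12.4% of all. GGGCGG was found in 4 of the 8, in 3 of the 4 and in 32.7% of all. Matches of different motifs were allowed to overlap, and they describe letters only.

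Values were on the log2 scale and correlated between arrays at 0.989 to 0.995. Tests covered the 17734 annotated probe sets whose mean exceeded 4.14, a floor set at their 30th percentile. All 12 endothelial markers were above that filter, and the lowest of their PBS means was 8.85 (Egfl7). Of the 44 collagen genes 39 passed it. Col11a1, Col19a1, Col6a4, Col6a5 and Col8a2 did not, and 16 of those that passed had a mean within 1 log2 unit of the filter. Some probe sets held exactly the same value in several arrays. At least 4 of the 7 arrays were equal in 14 of the 39 tested collagen genes, against 17.3% of all tested probe sets. Why values coincide was not tested.

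No collagen gene passed the test between PDGF-CC and PBS. By limma with Benjamini-Hochberg adjustment over all tested probe sets, 0 of 39 collagen genes had an adjusted p under 0.05, as did 0 (0%) of all 17734 probe sets, and adjusted p for collagens ran from 0.769 to 0.992. At an unadjusted p under 0.05 there was 1 collagen gene, Col8a1, against 1071 (6.04%) of all tested probe sets. In 0 of the 39 did every PDGF-CC array lie on one side of every PBS array, against 763 (4.3%) of all tested probe sets. Over all 44 genes the mean was higher after PDGF-CC for 24 and lower for 20, with a median difference of +0.01 (log2). This median had no stable sign, since it was -0.0061 without PDGF-CC array 4, -0.0012 without PBS array 1 and -0.0002 without PBS array 3. Over all tested probe sets the median was -0.004, with 48.4% positive. The median size of the difference, regardless of sign, was 0.068 for collagens and 0.078 for all tested probe sets. The 95% interval of the difference lay within 1.5-fold in either direction for 37 of the 39 tested collagens, the exceptions being Col8a1 and Col9a3, and within 2-fold for all 39. Its median half-width was 0.19 for these collagens and 0.22 for all tested probe sets. Of the 39, 14 held one value in at least 4 arrays and 16 lay near the filter, so a narrow interval need not mean an unchanged transcript.

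**Figure D1:**
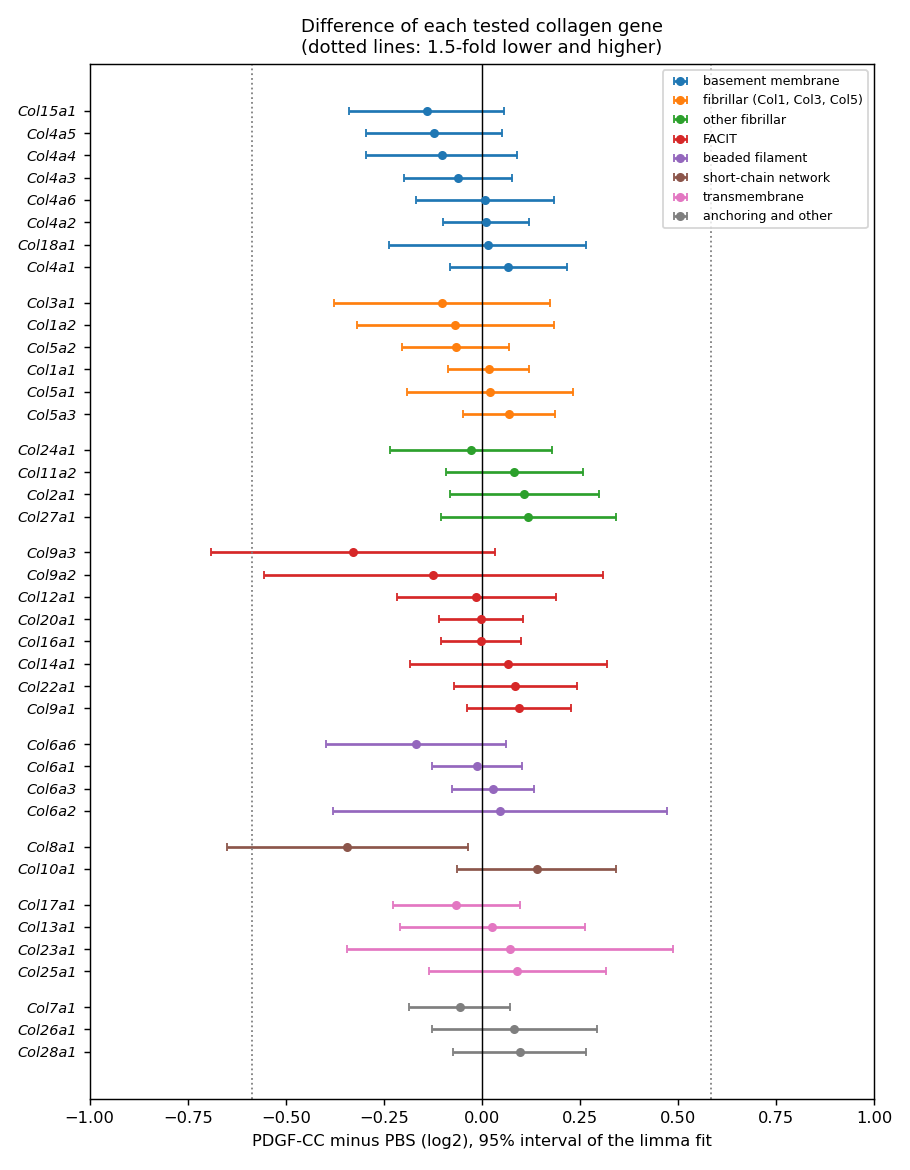
Difference between PDGF-CC and PBS arrays (log2, n = 4 and 3) for the 39 tested collagen genes, with 95% intervals of the limma fit, grouped by class. All intervals but that of Col8a1 cross 0, and dotted lines mark 1.5-fold.

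Col4a1 and Col4a2, the chains of the main vascular type IV collagen, showed no difference beyond the spread of the arrays. Col4a1 was at 8.55, 8.37, 8.40 and 8.40 in PDGF-CC arrays 1 to 4 and at 8.40, 8.29 and 8.40 in PBS arrays 1 to 3. The groups overlapped, with PDGF-CC array 1 highest and PBS array 2 lowest. The difference was +0.07 ± 0.063 (log2, SE, n = 4 and 3, adjusted p = 0.805 by limma), with an interval from 0.944-fold to 1.16-fold. Without PDGF-CC array 1 it was +0.03. Col4a2 was at 7.51, 7.58, 7.51 and 7.49 in PDGF-CC and at 7.51 in each PBS array. The same value stood in 5 arrays, and the difference was +0.01 ± 0.047 (adjusted p = 0.959), with an interval from 0.933-fold to 1.09-fold.

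The other type IV chains, which replace the main ones in the basement membranes of the kidney and of other specialised tissues, lay closer to the filter. Col4a5 was at 4.86, 4.94, 4.98 and 5.14 in PDGF-CC and at 5.08, 5.14 and 5.08 in PBS. PDGF-CC arrays 1 to 3 were below all PBS arrays and array 4 was level with the highest of them, for a difference of -0.12 ± 0.073 (adjusted p = 0.770). Col4a3 differed by -0.06 ± 0.059, Col4a4 by -0.10 ± 0.081 and Col4a6 by +0.01 ± 0.075. Without PBS array 1, the highest array for Col4a4, that gene differed by -0.01, and without PDGF-CC array 1, the lowest for Col4a3, that gene differed by -0.03.

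Col15a1 and Col18a1 encode collagens with interrupted helices that tie basement membranes to the surrounding matrix, and Col18a1 is the source of the angiogenesis inhibitor endostatin. Col15a1 was at 5.16, 5.06, 5.16 and 4.86 in PDGF-CC and at 5.21, 5.24 and 5.16 in PBS. No PDGF-CC array exceeded the lowest PBS array, but PDGF-CC arrays 1 and 3 held the same value as PBS array 3, so the groups touched. The difference was -0.14 ± 0.084 (adjusted p = 0.770), and -0.07 without PDGF-CC array 4. Col18a1 was at 5.76, 5.75, 5.76 and 5.97 in PDGF-CC and at 5.64, 6.02 and 5.72 in PBS. PBS array 2 was highest and PBS array 1 lowest, and the difference was +0.01 ± 0.11.

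Among fibrillar collagens, Col1a1, the main chain of type I collagen, read 5.32 in all 4 PDGF-CC arrays. It read 5.27 in PBS array 1 and again 5.32 in the other two, so 6 of 7 arrays held the same value. The difference was +0.02 ± 0.044 (adjusted p = 0.930). Its partner Col1a2 was at 8.26, 8.01, 8.25 and 8.47 in PDGF-CC and at 8.28, 8.39 and 8.28 in PBS. All PBS arrays lay within the range of the PDGF-CC arrays, and the difference was -0.07 ± 0.11 (adjusted p = 0.877). The further probe set of Col1a2, dimmer at a PBS mean of 5.79, gave a difference of the opposite sign, +0.09 ± 0.064 (adjusted p = 0.773).

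Col3a1, the chain of type III collagen in distensible vessel walls, was at 6.38, 6.13, 5.95 and 6.17 in PDGF-CC and at 6.17, 6.17 and 6.44 in PBS. PBS array 3 was highest and PDGF-CC array 3 lowest, with overlap between the groups and a difference of -0.10 ± 0.12 (adjusted p = 0.833). Without PBS array 3 it was -0.01. Type V collagen, which sets the diameter of type I fibrils, showed no difference past the test either. Col5a1 differed by +0.02 ± 0.090, Col5a2 by -0.07 ± 0.058 and Col5a3 by +0.07 ± 0.050. Without PBS array 1 Col5a2 was at -0.03, and without PBS array 3 Col5a3 was at +0.04. In Col5a1, PDGF-CC arrays 1 to 3 and PBS array 1 shared the value 5.34, and PBS arrays 2 (5.51) and 3 (5.12) lay on either side. The further probe set of Col5a1, which did not pass the filter, was at +0.13.

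**Figure D2:**
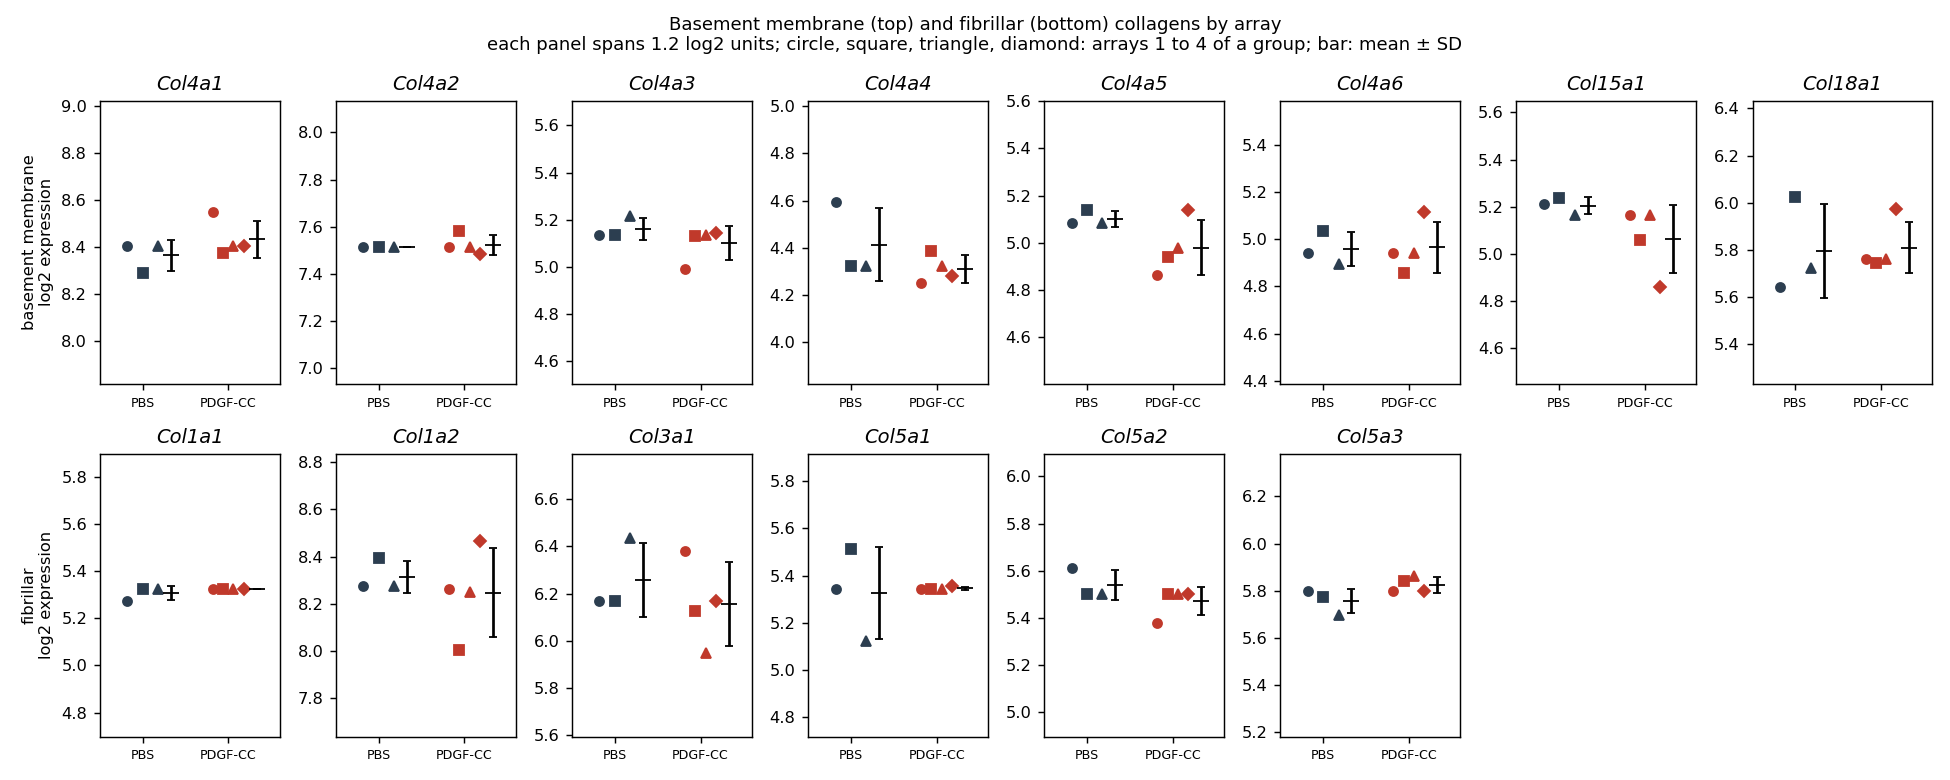
Log2 expression of the 8 basement membrane collagens (top) and the 6 fibrillar collagens (bottom) in 3 PBS and 4 PDGF-CC arrays, 1 point per array, with mean ± SD. In each of the 14 panels the groups overlap or touch, and several panels hold points at exactly the same height.

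Basement membrane and fibrillar collagens were then set against each other. For each array the mean over the members of a class was taken relative to each gene's PBS mean, so that the PBS arrays average 0. Basement membrane collagens were at -0.059, -0.055, -0.037 and -0.014 in PDGF-CC arrays 1 to 4 and at 0.001, 0.023 and -0.024 in PBS arrays 1 to 3. PDGF-CC arrays 1 to 3 lay below the lowest PBS array and array 4 did not. The mean difference was -0.04 (SD 0.021 in PDGF-CC, n = 4, and 0.023 in PBS, n = 3). Each gene had equal weight, and 5 of the 8 members lay within 1 log2 unit of the filter, against 0 of the 6 fibrillar members. The members with lower means were Col4a3, Col4a4, Col4a5 and Col15a1, all near the filter. Those with higher means were the brighter Col4a1 (+0.07), Col4a2 (+0.01) and Col18a1 (+0.01), and Col4a6 (+0.01), which was also near the filter. Fibrillar collagens were at -0.001, -0.060, -0.045 and 0.019 in PDGF-CC and at -0.005, 0.029 and -0.023 in PBS. These groups overlapped, with a mean difference of -0.02 (SD 0.037 and 0.026).

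Within an array, basement membrane minus fibrillar collagens was -0.058, 0.005, 0.008 and -0.033 in PDGF-CC and 0.006, -0.006 and -0.001 in PBS. PDGF-CC arrays 1 and 4 lay below the PBS arrays, array 3 lay above them and array 2 between them. The difference between the groups was -0.02 (SD 0.032 in PDGF-CC and 0.0061 in PBS), less than 1 SD of the PDGF-CC arrays. With each gene read as the mean of its probe sets, the fibrillar difference was 0.0007 and the class difference -0.04. Among the 8 basement membrane genes 4 means were higher and 4 lower, with a median difference of -0.03, and among the 6 fibrillar genes 3 were higher and 3 lower, with a median of -0.02. Numbers in the sample descriptions run from 1 to 7 over both groups. Among numbers 1 to 4 (PDGF-CC arrays 1 and 2, PBS arrays 1 and 2) the difference between PDGF-CC and PBS was -0.069 for basement membrane collagens. It was -0.042 for fibrillar collagens and -0.027 for the first minus the second. Among 5 to 7 (PDGF-CC arrays 3 and 4, PBS array 3 alone) these were -0.0013, 0.011 and -0.012. With PBS array 3 alone no PBS spread can be given there, so whether the differences changed with the numbers cannot be told. In both sets of numbers the PDGF-CC samples come first, so number and treatment cannot be told apart within them. No p-value is given for these class means, since the classes were chosen with earlier results of these arrays known.

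**Figure D3:**
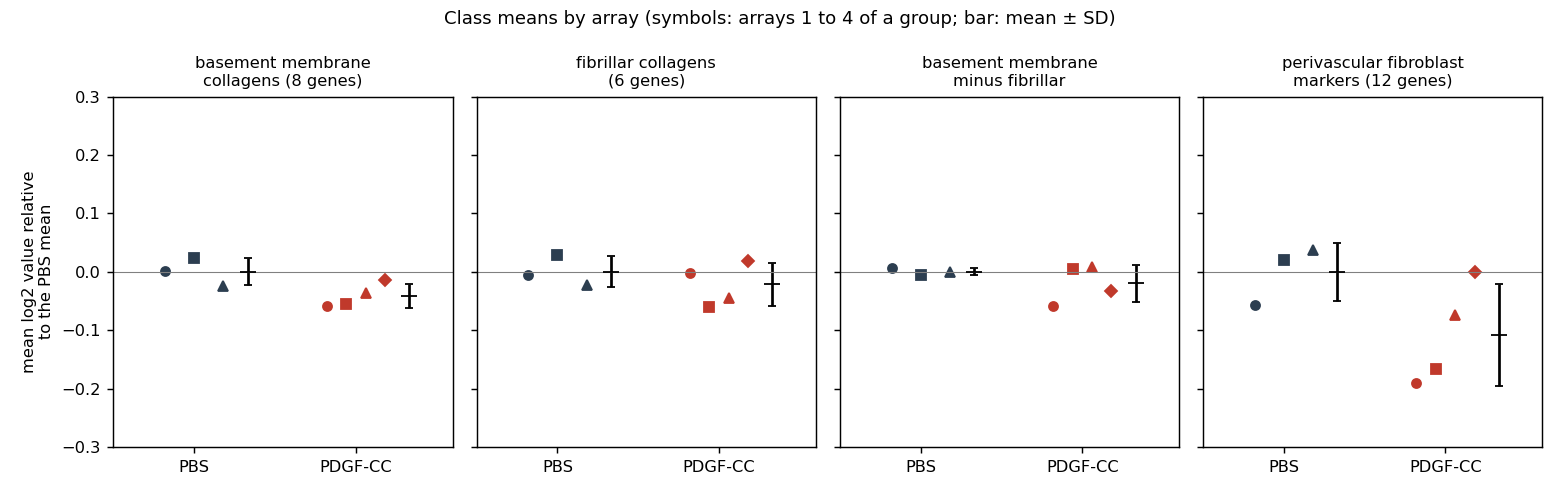
Mean log2 value of basement membrane collagens, of fibrillar collagens, of the first minus the second, and of perivascular fibroblast markers, relative to the PBS mean, with 1 point per array and mean ± SD. Both collagen classes stay within 0.06 of the PBS mean in every array, and the lowest array of the fibroblast markers is at -0.19.

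Of the other collagens, Col8a1 and Col9a3 had the largest differences, both negative and neither past the adjusted threshold. Col8a1 encodes a short-chain collagen made by vascular cells. It was at 7.52, 7.16, 7.22 and 7.52 in PDGF-CC and at 7.52, 7.91 and 7.67 in PBS. PDGF-CC arrays 1 and 4 held the same value as PBS array 1, the lowest of its group. The difference was -0.34 ± 0.13 (unadjusted p = 0.0339, adjusted p = 0.769), with an interval from 0.637-fold to 0.976-fold. It was -0.24 without PBS array 2 and -0.43 without PBS array 1.

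Col9a3, a chain of the type IX collagen that decorates fibrils in cartilage, was at 5.23, 4.90, 5.17 and 5.23 in PDGF-CC and at 5.23, 5.81 and 5.34 in PBS. Only PDGF-CC array 4 reached the lowest PBS array, and PBS array 2 stood highest. The difference was -0.33 ± 0.15 (adjusted p = 0.769), -0.15 without PBS array 2 and -0.44 without PBS array 1. Its partner Col9a2 differed by -0.12 ± 0.18, with PDGF-CC array 1 lowest at 5.91 and each PBS array at 6.49.

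The remaining genes had smaller differences. Type VI collagens, which form beaded filaments next to basement membranes, ran from -0.17 to +0.07 over 6 genes, 4 of them tested. The further probe set of Col6a1, which did not pass the filter, was at +0.30, against -0.01 for the brighter one. Col6a6 was at -0.17 ± 0.097, and at -0.05 without PBS array 3, its highest array at 6.67. Col6a2 was at +0.05 ± 0.18 with PBS array 2 highest at 5.90 and the other PBS arrays lowest at 5.21. Fibril-associated collagens had 4 higher and 5 lower means and a median of -0.002. Minor fibrillar collagens had 4 higher and 1 lower mean, with a median of +0.11, and 3 of the 4 tested members lay near the filter. Col11a1 (+0.12), which did not pass the filter, had PDGF-CC array 1 at 4.60 and the other arrays at 3.92 to 4.12. The tested members included Col27a1 (+0.12 ± 0.095, and +0.06 without PBS array 2) and Col2a1 (+0.11 ± 0.080, and +0.02 without PBS array 1). Col10a1, a short-chain collagen of growth plate cartilage, was at +0.14 ± 0.085. Transmembrane collagens had a median of +0.05, with Col25a1 at +0.09 ± 0.096 and Col23a1 at +0.07 ± 0.18. Col26a1 and Col28a1, of the last class, were at +0.08 ± 0.089 and +0.10 ± 0.072. With 1 PDGF-CC array left out, Col25a1 was at +0.02 (without array 1), Col26a1 at +0.01 (without array 2) and Col28a1 at +0.05 (without array 4). Adjusted p by limma for these named genes ran from 0.769 to 0.954.

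Genes that process collagen or bind it were read from 49 listed genes, of which 44 had a probe set and 40 passed the filter. None passed the adjusted threshold. At an unadjusted p under 0.05 there were 4 of the 40, all lower, beside 6.04% of all tested probe sets. Groups that did not overlap were found for 2 of the 40, 1 higher and 1 lower, near the 4.3% of all tested probe sets. The median difference over the 44 was -0.01. The 4 genes were Tll1, Pcolce, Pcolce2 and Itga1, and 3 of these belong to the list of propeptide removal. In that list 5 of 6 measured means were lower, with a median of -0.18, where 48.4% of all tested probe sets had a positive difference. Of the 5 lower means, Adamts3 (-0.02) did not pass the filter and Bmp1 was at -0.01.

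Pcolce2 encodes an enhancer of the proteases that cut the end propeptide from fibrillar procollagen. It was at 6.16, 5.56, 5.73 and 6.07 in PDGF-CC and at 6.16, 6.71 and 6.36 in PBS. PDGF-CC array 1 was level with PBS array 1 and the other PDGF-CC arrays were lower than all PBS arrays. The difference was -0.53 ± 0.19 (unadjusted p = 0.0244, adjusted p = 0.769), -0.38 without PBS array 2 and -0.66 without PBS array 1. Its relative Pcolce, named after its values were seen, was at 7.26, 7.19, 7.06 and 7.34 in PDGF-CC and at 7.26, 7.66 and 7.73 in PBS. PBS array 1 lay among the PDGF-CC arrays, and the difference was -0.34 ± 0.13 (adjusted p = 0.769).

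Tll1 encodes a tolloid-like protease of this step. It was at 6.90, 6.89, 6.92 and 6.66 in PDGF-CC and at 7.46, 7.37 and 6.91 in PBS. PBS arrays 1 and 2 were high and PBS array 3 lay among the PDGF-CC arrays, for a difference of -0.41 ± 0.14 (adjusted p = 0.769). The other tested members of the list, named to complete it and outside the rule for named genes, were Bmp1, the main protease for this cut, at -0.01 ± 0.16, and Adamts14, which cuts the opposite end, at +0.02 ± 0.10. The further probe set of Adamts14 was at -0.08 ± 0.086. As a mean over the 6 measured members relative to PBS, the list was at -0.17, -0.25, -0.26 and -0.17 in PDGF-CC arrays and at -0.10, 0.06 and 0.03 in PBS arrays. The lists were drawn up with earlier results of these arrays known, so this is a description.

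**Figure D4:**
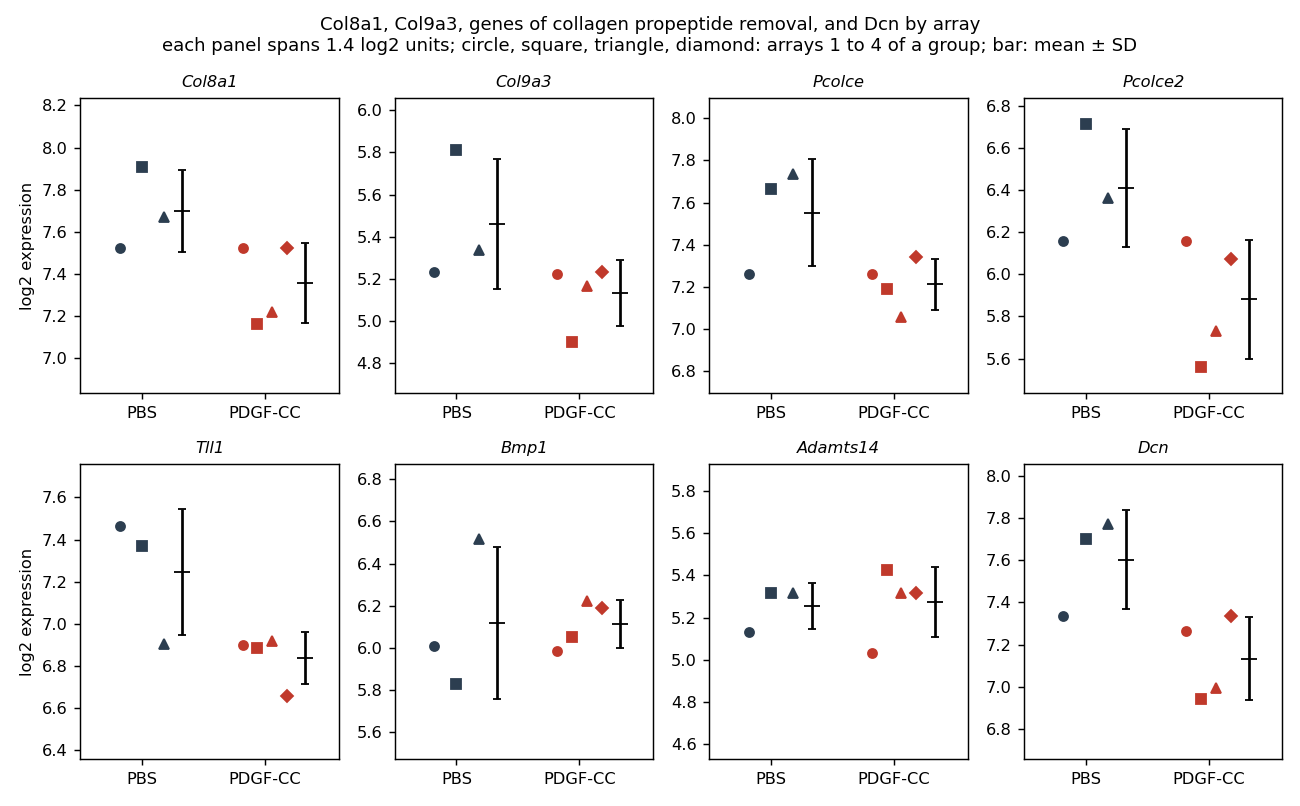
Log2 expression of Col8a1, Col9a3, 5 genes of propeptide removal and the fibroblast marker Dcn in 3 PBS and 4 PDGF-CC arrays, 1 point per array, with mean ± SD. In Pcolce, Pcolce2 and Dcn, PBS arrays 2 and 3 lie above all PDGF-CC arrays and PBS array 1 does not. Dcn was picked after its values were seen and had the largest difference of 12 fibroblast markers. Their median difference was -0.05, and 3 of the 12 had higher means.

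Chain modification genes split evenly, with 7 higher and 7 lower means. P3h1 and P3h2, both prolyl 3-hydroxylases, were the 2 genes whose groups did not overlap, a count near the share of 4.3% over all tested probe sets. P3h1 was at 7.45, 7.26, 7.45 and 7.39 in PDGF-CC and at 7.52, 7.47 and 7.57 in PBS, a difference of -0.13 ± 0.064 (adjusted p = 0.769). P3h2 was at 7.97 in PDGF-CC array 1, at 7.86 in the other PDGF-CC arrays and at 7.85, 7.75 and 7.73 in PBS, a difference of +0.11 ± 0.056 (adjusted p = 0.769). Of folding and export genes, Mia3, which loads large collagens for export from the endoplasmic reticulum, was at -0.18 ± 0.098 and Klhl12, a ubiquitin ligase adaptor for large transport vesicles, at +0.16 ± 0.11. Pxdn, the peroxidase that cross-links type IV collagen, was at -0.14 ± 0.086, and Fmod, a small proteoglycan bound to fibrils, at +0.13 ± 0.073. Leaving out 1 array moved each of these 4 genes by over 1.5 times, to -0.11 for Mia3 (PDGF-CC array 1), +0.07 for Klhl12 (PDGF-CC array 3), -0.06 for Pxdn (PBS array 2) and +0.06 for Fmod (PBS array 1). The further probe set of Fmod was at -0.11 ± 0.094.

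Among collagen receptors, Itga1, the alpha chain of the collagen-binding integrin of vascular cells, was at -0.21 ± 0.089 (unadjusted p = 0.0486, adjusted p = 0.769). PDGF-CC arrays 1 and 2 (9.96 and 9.97) lay below the other arrays, while PDGF-CC arrays 3 and 4 shared the value 10.2 with PBS array 1. Lair1, an inhibitory collagen receptor of immune cells, was at +0.34 ± 0.17, and at +0.11 without PBS array 2, which was lowest at 7.82. Without PBS array 1 it was at +0.48.

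Markers of several cell types also had lower or higher means, none past the adjusted threshold. In vessel pieces a lower level can mean fewer cells of a type or less RNA per cell, which cannot be told apart. Of 12 measured perivascular fibroblast markers 9 were lower, with a median of -0.05. Their mean relative to PBS ran from -0.19 to -0.0008 in PDGF-CC arrays and from -0.057 to 0.037 in PBS arrays. Dcn, a fibroblast proteoglycan gene also picked after its values were seen, was at -0.47 ± 0.14 (adjusted p = 0.769), the largest difference of the list. Of 11 pericyte markers 10 were lower, with a range of means from -0.42 to 0.033 in PDGF-CC and from -0.15 to 0.16 in PBS. The lowest were PDGF-CC arrays 1 and 2 (-0.42 and -0.32), which are also numbers 1 and 2 in the sample descriptions. These arrays were also lowest for the basement membrane collagen mean and for Itga1. Col4a1 was highest of all arrays in PDGF-CC array 1 (8.55), and Col4a2 in PDGF-CC array 2 (7.58). In Col4a2, 5 of the 7 arrays held one value. Whether these orders of arrays are linked was not tested. Smooth muscle markers were higher for 6 of 7, with means from 0.0084 to 0.18 in PDGF-CC and from -0.17 to 0.16 in PBS. Choroid plexus markers were lower for 7 of 8, with means from -1.09 to -0.24 in PDGF-CC and from -0.17 to 0.18 in PBS, where PBS array 2 was highest. Of 7 microglial markers 6 were higher, with means from 0.23 to 0.29 in PDGF-CC and from -0.31 in PBS array 2 to 0.18 in PBS array 1. Means were higher for 5 of 12 endothelial, 3 of 6 astrocyte, 5 of 6 neuronal and 4 of 5 oligodendrocyte markers. Groups did not overlap for 6 of 8 choroid plexus and 2 of 7 microglial markers, beside 4.3% of all tested probe sets. In every other marker list this held for at most 1 marker. The part of these markers in the values of the basement membrane collagens, Col8a1, Col9a3, Pcolce, Pcolce2, Itga1 and Lair1 was not tested.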

How the data were processed

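Each array was run from 10 ng of RNA. The deposited table held 1 log2 value per probe set and array, a scale read from the range of the values. The submitters' processing notes name RMA, limma and Affymetrix Expression Console but no settings, and the genome build is not given in the sources used here. Of 33793 probe sets, 23521 had 1 gene symbol in the platform annotation, 1814 several and 8458 none. The contrast of PDGF-CC with PBS was fitted with limma 3.58.1 (lmFit, then eBayes; R 4.3.3) on the 17734 annotated probe sets brighter on average than their 30th percentile, without covariates, 2-sided, with Benjamini-Hochberg adjustment at 0.05. The fit was tested on simulated data. Members, classes and gene lists were chosen with earlier results of these data known. Named genes were all Col4, Col15, Col18, Col1, Col3 and Col5 genes, the 2 largest tested differences of each other class, and the 2 smallest p-values of each processing or receptor list. Array data carry no read depth, so the number of arrays limits precision. Alternatives changed the filter, normalization, prior, array weights, covariates or probe set rule, or left out an array. Promoter sequences came from RefSeq. Figures used matplotlib 3.10.9.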

Additional observations from a re-analysis of the deposited data

Results flagged for a closer look

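In 9 of 42 results examined, 1 of the 4 PDGF-CC arrays stood far from the other three by Dixon's criterion at a critical value of 0.829, where chance gives about 1 in 20. PDGF-CC array 1 stood apart in Col4a1 (8.55, others 8.37 to 8.40), Col4a3 (4.99, others 5.13 to 5.14), Col5a2 (5.38, others all 5.50) and P3h2 (7.97, others all 7.86). PDGF-CC array 4 stood apart in Col18a1 (5.97, others 5.75 to 5.76), Col5a1 (5.354, others all 5.342), Col10a1 (5.14, others 5.40 to 5.44), Tll1 (6.66, others 6.89 to 6.92) and Fmod (6.96, others 6.83 to 6.85). In Col5a1, Col5a2 and P3h2 the other three arrays held exactly the same value, so that any departure meets the criterion, and in Col5a1 it was 0.01.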

How the results depend on the processing

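No collagen gene was called under any of 17 alternatives with a test, and no named gene, with 0.360 (Itga1) as the lowest adjusted p of limma. Over 18 alternatives the mean difference ran from -0.053 to -0.030 for basement membrane collagens, from -0.035 to 0.0007 for fibrillar collagens and from -0.042 to -0.007 for the first minus the second, and no value moved from that with all arrays by more than the pooled SD. The median over the 44 collagens ran from -0.0061 to 0.021. The number of probe sets called overall was 0 with all arrays, 3 with a stricter filter (the 50th percentile), with arrays centred on their median or with a trended and robust prior, 1 with repeated quantile normalization, and 0 to 1 with an array left out (1 without PDGF-CC array 3). Where the Results give a gene without 1 array, that array includes the one that shrank its difference most. Leaving out other arrays enlarged the difference. Signs changed for 10 genes. Over left-out arrays Col4a2 ran from -0.0092 to 0.023, Col4a6 from -0.044 to 0.046, Col18a1 from -0.063 to 0.13, Col1a2 from -0.14 to 0.012, Col5a1 from -0.082 to 0.11, Col9a2 from -0.25 to 0.028, Col6a2 from -0.069 to 0.27, Col23a1 from -0.0069 to 0.23, Bmp1 from -0.15 to 0.19 and Adamts14 from -0.044 to 0.098. Col4a6 was at -0.0015 with centred arrays and -0.012 with quantile normalization, Col5a1 at -0.0072 with description number as a covariate, and Col1a2 at 0.011 as the mean of its probe sets. Bmp1 was at 0.0088 with quantile normalization, 0.022 with array weights and 0.088 with the covariate. Title numbers as a replicate block, which leaves out PDGF-CC array 4, called 0 probe sets and gave -0.015 for basement membrane minus fibrillar collagens, -0.044 for Col4a6, -0.040 for Col18a1 and -0.0069 for Col23a1. Same-numbered arrays deviated together at correlations of 0.16, 0.11 and 0.084. PBS array 3 correlated best with PDGF-CC array 4 (0.32), so the title numbers were not taken as pairs. By description number, PDGF-CC and PBS arrays correlated at 0.040 to 0.16 within numbers 1 to 4 and at 0.084 and 0.32 within 5 to 7. Every correlation between these sets was negative, from -0.22 to -0.0075. The main fit held no block for the sets. With them as a block 0 probe sets were called, and basement membrane minus fibrillar collagens was at -0.021. The cause of the changes was not tested.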
